A study of Mus musculus with 9 samples.

Results

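The simple epithelial keratins examined here are Krt7 and Krt8, which are type II chains, and Krt18, Krt19 and Krt23, which are type I chains. They were taken by gene symbol from a deposited table of 56748 genes, and all 5 were found and passed the filter on low counts, as did 17338 genes in all. The libraries came from wild-type primary mouse airway basal stem cells of the trachea, the progenitors of the airway lining, grown in air-liquid interface culture, in which cells on a membrane are fed from below and face air above. RNA was sequenced on days 1, 3 and 5, named by the submitters as stages of proliferation, stratification and specification of luminal cells, with 3 libraries a day and no treatment other than the culture. Whether the 3 libraries of a day were separate cultures or separate animals is not stated in the labels, so each p-value below describes the spread among these libraries, which may be technical.

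Keratins are the intermediate filament proteins of epithelial cells, and a filament assembles only from a type I chain paired with a type II chain. Krt8 with Krt18 is the pair found in simple epithelia in general, and Krt7 and Krt19 accompany it in ducts and airways, whereas Krt5 and Krt14 mark basal cells. In the airway the simple keratins are known as luminal markers, and Krt8 marks early progenitors that have left the basal layer. Krt19 is the smallest keratin and lacks most of the tail domain, and Krt23 is a less studied type I chain. Krt19 and Krt23 lie on chromosome 11 in the type I cluster, and Krt7, Krt8 and Krt18 on chromosome 15, where Krt18 is the type I gene that sits beside the type II cluster, next to Krt8.

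For the 3 chromosome 15 genes the 250 bases before their annotated starts are shown, from RefSeq on GRCm38.p6. The rise from day 1 to day 3 was not particular to these 3, since Krt19 and Krt23 rose as well, and Krt7 then fell farthest. Whether these bases bear on the changes was not tested. The Krt7 window is chr15:101412153-101412402 on the plus strand, the Krt8 window is chr15:102004343-102004592 on the minus strand and the Krt18 window is chr15:102027966-102028215 on the plus strand. Each is printed on the strand of its gene, and capitals mark matches to an AP-2 motif (GCCNNNGGC) or a GC box (GGGCGG), both searched on either strand.
Krt7: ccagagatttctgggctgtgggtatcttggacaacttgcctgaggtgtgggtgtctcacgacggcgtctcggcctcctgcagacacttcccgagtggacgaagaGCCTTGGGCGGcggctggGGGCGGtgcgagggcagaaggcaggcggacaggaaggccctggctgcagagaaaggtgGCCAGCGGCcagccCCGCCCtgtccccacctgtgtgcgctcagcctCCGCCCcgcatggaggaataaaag
Krt8: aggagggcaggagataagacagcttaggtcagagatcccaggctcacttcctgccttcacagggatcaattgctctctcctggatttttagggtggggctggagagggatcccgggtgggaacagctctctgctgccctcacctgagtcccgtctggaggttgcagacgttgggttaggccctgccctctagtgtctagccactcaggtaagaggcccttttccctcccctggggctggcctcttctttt
Krt18: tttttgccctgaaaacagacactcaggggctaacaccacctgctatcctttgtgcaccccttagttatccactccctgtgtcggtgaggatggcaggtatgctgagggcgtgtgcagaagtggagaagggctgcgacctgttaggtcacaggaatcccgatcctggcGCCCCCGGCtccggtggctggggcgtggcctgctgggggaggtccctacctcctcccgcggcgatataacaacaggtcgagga
The Krt7 window held 2 AP-2 matches, beginning 146 and 70 bases before the start, and 4 GC boxes, beginning 141, 128, 56 and 24 bases before it, of which the box at 141 overlaps the AP-2 match at 146. The Krt18 window held 1 AP-2 match, 83 bases before the start, and no GC box, and the Krt8 window held neither. The AP-2 motif occurred in 13.7% and the GC box in 32.7% of all 32851 such windows. Neither a TATA box (TATAAA, gene strand, 7.59% of windows) nor an AP-1 motif (TGANTCA, both strands, 6.75%) nor a Grainyhead motif (AACNNGTT, both strands, 3.64%) was found in these windows or in that of Krt23. No window was available for Krt19, so Krt19 was not searched. A match describes letters only, and no binding was measured.

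The libraries held 16.4 to 35.1 M reads, deepest on day 1 (mean 30.8 ± 4.29 M, SD, n = 3), then on day 3 (21.9 ± 2.55 M), and shallowest on day 5 (17.6 ± 1.51 M). Libraries correlated at 0.968 to 0.989 within a day and at 0.761 to 0.893 between days. The 5 epithelial markers summed to 32702 to 33634, 37369 to 39211 and 26981 to 27834 normalized counts on days 1, 3 and 5, a normalized count being the read count divided by the deposited scale of its library. The 6 secretory markers rose from a summed 198 to 1108 on day 1 to 449470 to 583290 on day 5, and the 7 multiciliated markers from 7.46 to 10.9 to 4520 to 5312. Of the 7 mesothelial markers, a set looked at because mesothelium also holds simple keratins, Wt1 and Rspo1 had no read on days 1 and 3, while Msln stood at 30821, 67434 and 89657, so Msln and Upk1b made up nearly the whole sum. Of the 8 leukocyte markers, Tyrobp had no read in any library and Ptprc at most 4.07 normalized counts, while Lyz2 reached 70299 ± 9766 on day 5. The 4 leukocyte markers tested all rose from day 1 to day 3, where 36.1% of all tested genes rose. Cd74, Itgam and Lyz2 had means of 4.18, 3.73 and 0.452 on day 1. They thus passed the filter on low counts only through later days, which favours a rise. Ptprc, at 3.47 on day 1 and 0 on day 3, was not tested. The count of 4 can therefore not be weighed against that share. From day 3 to day 5, 1 of the 4 rose and 2 fell, where 34.8% and 32.4% of all tested genes did, under the same limit. Cd68 stood at 259, 1612 and 163 normalized counts on days 1, 3 and 5. Y-linked genes summed to 3027 to 3253 normalized counts on day 1, 300 to 348 on day 3 and 401 to 575 on day 5, and Xist ran from 1548 to 2018, 5416 to 6346 and 6117 to 8698, so the makeup of the cells by sex differed between day 1 and the later days and cannot be told apart from the day. In these bulk libraries a lower level can be fewer cells of a type or less RNA per cell, and these cannot be told apart.

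Each of the 5 simple keratins was highest on day 3, and in each the 3 libraries of day 3 lay above all 6 others. The share of all tested genes with such a separation was not computed. By a different criterion, a called rise followed by a called fall, 16.2% of them had a peak on day 3. From day 1 to day 3 all 5 rose, by 1.81-fold to 3.97-fold, and from day 3 to day 5 all 5 fell. The fall took Krt8, Krt18 and Krt19 back to levels that overlapped those of day 1, took Krt7 well below its day 1 level and left Krt23 above it. Day 5 thus set the type II chain Krt7, below its day 1 level, and the type I chain Krt23, above it, apart from Krt8, Krt18 and Krt19.

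Krt8, the general type II chain of simple epithelia, stood at 12872, 11731 and 13200 normalized counts in replicates 1, 2 and 3 of day 1, at 23994, 21263 and 23183 on day 3 and at 10052, 12592 and 13554 on day 5. Days 1 and 5 overlapped, and day 3 was apart from both. On the log2(normalized count + 1) scale, on which all changes are given, Krt8 rose by 0.86 (SE 0.13, limma adjusted p = 0.00013) and then fell by 0.93 (SE 0.13, adjusted p = 0.00012). Between days 1 and 5 the difference was -0.07 with a 95% interval of -0.36 to 0.21 (limma adjusted p = 0.62).

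Krt18, the type I partner of Krt8, stood at 9038, 9654 and 9017 normalized counts on day 1, at 20904, 18007 and 19850 on day 3 and at 6917, 8795 and 9639 on day 5. Its days 1 and 5 overlapped too, with replicate 1 of day 5 the lowest of all 9 libraries. Krt18 rose by 1.08 (SE 0.13, limma adjusted p = 2.8e-05) and fell by 1.22 (SE 0.13, adjusted p = 2e-05), and the difference of day 5 from day 1 was -0.14 (95% interval -0.43 to 0.15, adjusted p = 0.34).

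Krt19, the type I chain with the highest level among the members, stood at 56501, 56377 and 54906 normalized counts on day 1, at 138021, 132708 and 113819 on day 3 and at 42471, 58752 and 61842 on day 5. The day 1 libraries lay close together, with an SD of 887 around a mean of 55928, and the day 5 libraries spread on both sides of them. Krt19 rose by 1.19 (SE 0.18, limma adjusted p = 0.00016) and fell by 1.25 (SE 0.18, adjusted p = 0.00018), with a net difference of -0.06 (95% interval -0.47 to 0.35, adjusted p = 0.77).

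Krt7, the type II chain of ducts and airways, stood at 54650, 46814 and 53856 normalized counts on day 1, at 123311, 108335 and 118970 on day 3 and at 13086, 17365 and 18015 on day 5. No 2 days overlapped, and the highest day 5 library had fewer counts than the lowest day 1 library. Krt7 rose by 1.18 (SE 0.16, limma adjusted p = 7.1e-05), then fell by 2.87 (SE 0.16, adjusted p = 3.2e-07), a 7.29-fold drop, and ended 3.23-fold below day 1 (log2 difference -1.69, adjusted p = 3.9e-06). Only 1.73% of all tested genes had a lower log2 change from day 3 to day 5, against 13.8% to 19.6% for the other 4 members.

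Krt23, a type I chain of much lower level, stood at 605, 265 and 611 normalized counts on day 1, at 1809, 1615 and 2105 on day 3 and at 850, 854 and 1056 on day 5. Its 3 days did not overlap, and replicate 2 of day 1 lay far below the other day 1 libraries. Krt23 rose by 1.99 (SE 0.28, limma adjusted p = 7.8e-05) and fell by 1.00 (SE 0.28, adjusted p = 0.0085), and day 5 was 1.98-fold above day 1 (log2 difference 0.99, 95% interval 0.38 to 1.60, adjusted p = 0.0075). Leaving out each library in turn moved this last value between 0.59 and 1.19.

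**Figure D1:**
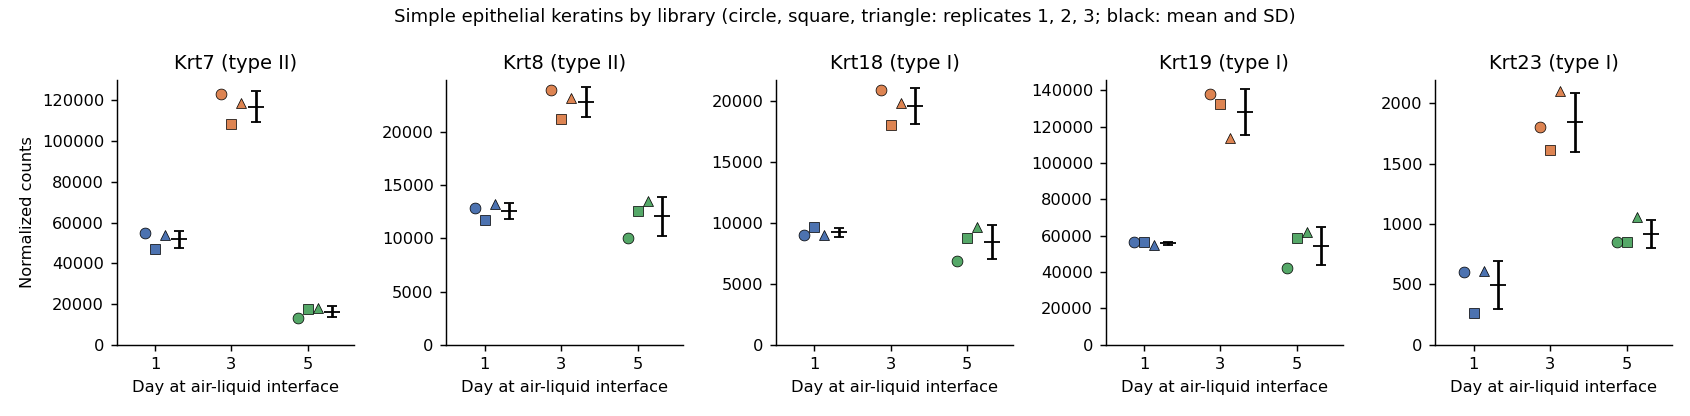
Normalized counts of the 5 keratins (vertical axes from 0, a scale of its own for each gene) by day at the air-liquid interface, with a point for each library and the mean and SD of 3 libraries in black. Day 3 is highest in every panel, with means of 116872 for Krt7 and 1843 for Krt23, and the day 5 libraries of Krt7 sit between 13086 and 18015, under all others.

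Such changes were common in these libraries. All 5 members passed the threshold from day 1 to day 3, against 73% of all tested genes, 36.1% higher and 37% lower. All 5 passed again from day 3 to day 5, against 67.3% of genes, 34.8% higher and 32.4% lower. Both a rise and a following fall were called for 16.2% of tested genes (2808 of 17338). From day 1 to day 5, 2 of the 5 members passed, Krt7 lower and Krt23 higher, against 74.5% of all genes, 36.7% higher and 37.7% lower. The change between the steps, that is the second change minus the first, was below 0 and called for all 5 (70.7% of all genes, 36.8% above 0 and 33.9% below) and ran from -1.78 for Krt8 to -4.04 for Krt7. All 5 also passed the F test across the days, as did 91.4% of genes. The median log2 changes of all tested genes were 0.003, 0.06 and -0.06 for the 3 comparisons in the same order as above. Replicate 1 of day 5 was the lowest of its day for all 5 members, by 0.11 for Krt23 to 0.34 for Krt19 below the day's mean on the log2 scale, whereas in replicate 2 of day 1 Krt23 deviated by -0.80 and Krt18 by 0.06.

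The scale of the libraries touched the size of these changes. Krt8, Krt18 and Krt19 are short transcripts (1437 to 1958 bases) of 56.4% to 57.6% GC, and removing from each library the trend of log2 level with transcript length and GC content reduced their rise to 0.07, 0.30 and 0.34. Krt8 was then no longer called (limma adjusted p = 0.47), and the net differences of day 5 from day 1 became -0.65, -0.51 and -0.54 and passed the threshold. The annotated Krt7 transcript has 4094 bases, of which 1371 are coding, and 52.3% GC. Its rise was 1.18 in the main fit and 1.31 with the trend of transcript length and GC removed. With coding length in its place Krt7 rose by 0.96 and Krt8 by 0.32 (limma adjusted p = 0.0052). Length and GC were removed together, so their parts were not separated. Quantile normalization gave rises of 0.53 for Krt7, 0.39 for Krt8, 0.78 for Krt18 and 0.40 for Krt19, and left the fall of Krt8 at -0.21 (adjusted p = 0.13). The fall of Krt7 was -2.27 to -3.03 and the rise of Krt23 1.56 to 1.99 under these settings. The part that length, GC content or library composition has in the changes was not tested beyond these refits.

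**Figure D2:**
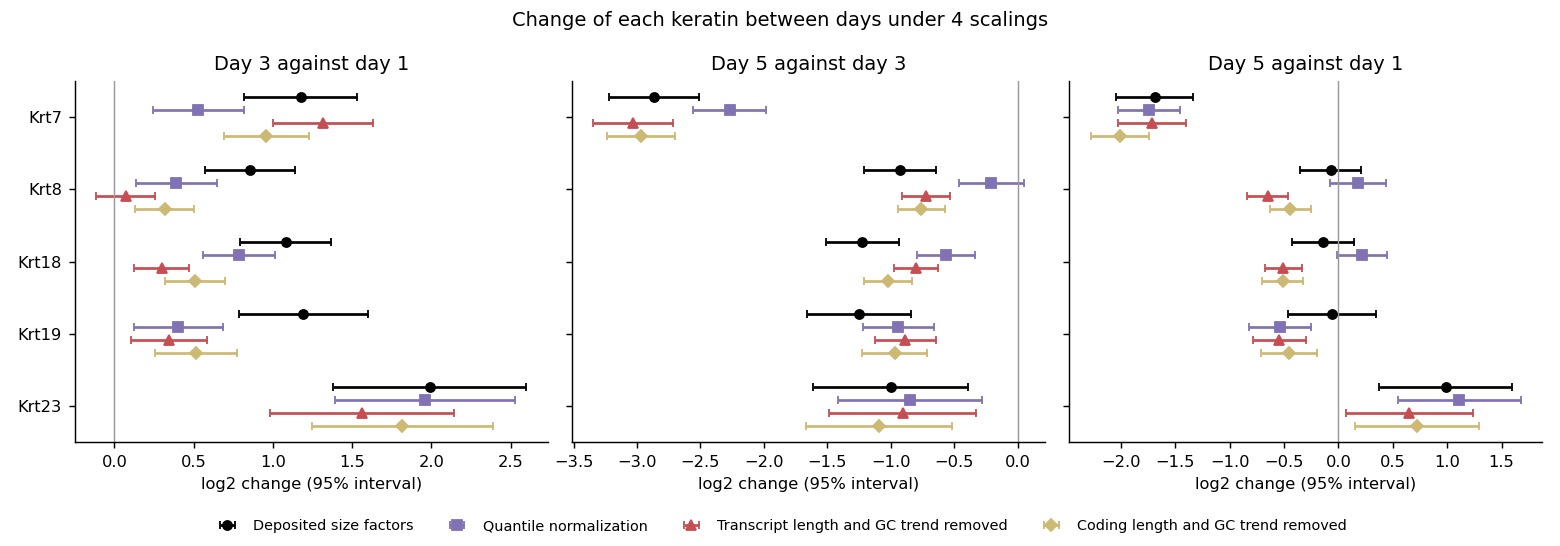
Log2 change with its 95% interval (horizontal axes) for each keratin and each pair of days under 4 scalings of the same 9 libraries. The Krt7 fall from day 3 to day 5 lies between -2.27 and -3.03 throughout, while the Krt8 rise ranges from 0.07 to 0.86 and the day 5 minus day 1 difference of Krt8 and Krt18 changes sign between scalings.

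Levels of different keratins were compared per kilobase (kb) of the longest protein-coding transcript. On day 1 the order was Krt19 at 35487 ± 563 normalized counts per kb, Krt7 at 12646 ± 1054, Krt8 at 6435 ± 394, Krt18 at 6428 ± 252 and Krt23 at 315 ± 127 (SD, n = 3), and the libraries of Krt8 and Krt18 overlapped while other neighbours did not. On day 3 Krt19 stood at 81334 ± 8071 per kb, Krt7 at 28547 ± 1882, Krt18 at 13630 ± 1021, Krt8 at 11651 ± 716 and Krt23 at 1177 ± 158, with no neighbours overlapping. On day 5 Krt7 had dropped to the fourth place, at 3946 ± 654 per kb, below Krt19 at 34489 ± 6603, Krt8 at 6162 ± 924 and Krt18 at 5880 ± 970, the last pair overlapping, and above Krt23 at 588 ± 75.1. The place of Krt7 depends on the length used for it. Per coding kb it was second on every day, at 37763, 85246 and 11784, after Krt19 at 46260, 106024 and 44959 and before Krt8 and Krt18.

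The ratio of a type II to a type I chain within a library does not depend on the size factor of that library, although quantile normalization and the removal of a length and GC trend can move it. All 6 pairs of a type II with a type I member differed across the days by an exact permutation test of the between-day F statistic (two-sided, 1680 arrangements, smallest possible p 0.00357), with p-values adjusted over the 6 pairs. How often pairs of other genes would pass this test was not computed. Since 91.4% of all tested genes passed the limma F test across the days, the calls are not a trait shown to be particular to these pairs. Between any pair of days the exact test of 3 libraries against 3 cannot go below 0.10, so no pairwise difference reached 0.05.

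For Krt8 and Krt18 the per-kb ratio was 1.05, 0.892 and 1.07 on day 1, 0.842, 0.867 and 0.857 on day 3 and 1.07, 1.05 and 1.03 on day 5. The pair was thus near parity on days 1 and 5 and tilted to the type I chain on day 3, the lowest day, with no overlap between day 3 and either other day. The means were 1.00 ± 0.0981, 0.855 ± 0.0122 and 1.05 ± 0.0173 (n = 3, exact permutation adjusted p = 0.0357). Per coding kb the same ratios were 1.18, 1.01 and 1.23, so where parity falls depends on the length used. The call was lost without any of the 3 libraries of day 3, or without replicate 1 or 2 of day 5 (exact adjusted p 0.06 to 0.0771 with each left out alone). It was also lost once the trend with length and GC was taken out, where the step from day 3 to day 5 shrank from 0.30 to 0.08 (exact adjusted p = 0.10).

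Krt7 left its type I partners on day 5. The per-kb ratio of Krt7 to Krt18 was 2.12, 1.70 and 2.096 on day 1, 2.07, 2.11 and 2.104 on day 3 and 0.664, 0.693 and 0.656 on day 5. Days 1 and 3 overlapped and day 5 was far below both. The means were 1.97 ± 0.236, 2.095 ± 0.0219 and 0.671 ± 0.0194 (n = 3, exact permutation adjusted p = 0.0357), or 5.20, 5.53 and 1.77 per coding kb. The log2 ratio dropped by 1.64 from day 3 to day 5. Its change from day 1 to day 3, 0.09 here, was 1.01 once the trend with transcript length and GC was taken out, 0.45 with coding length in that step and -0.26 by quantile normalization.

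The ratio of Krt7 to Krt19 took the same course, at 0.372, 0.320 and 0.378 on day 1, 0.344, 0.314 and 0.402 on day 3 and 0.119, 0.114 and 0.112 on day 5. Its means were 0.357 ± 0.0320, 0.354 ± 0.0448 and 0.115 ± 0.00336 (n = 3, exact permutation adjusted p = 0.0357). Both calls were lost without replicate 1 of day 3 (exact adjusted p = 0.0514) or replicate 2 of day 5 (0.0536), where fewer arrangements exist and the drop itself stayed at 1.61 to 1.67 on the log2 scale.

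Against Krt19, Krt8 was lowest on day 3, at ratios of 0.140, 0.129 and 0.164, while day 1 had 0.183, 0.168 and 0.194 and day 5 had 0.191, 0.173 and 0.176. Day 3 did not overlap the others, and days 1 and 5 did overlap (exact permutation adjusted p = 0.0357, n = 3). This call was lost without any single library other than replicate 3 of day 3 (exact adjusted p 0.05 to 0.0786), and also once the trend with length and GC was taken out (0.0986). By quantile normalization the log2 change from day 1 to day 3 was -0.01, against -0.34 here.

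Against Krt23 both type II chains had their highest ratios on day 1, with a wide spread there. Krt7 to Krt23 was 45.3 ± 19.3, 24.4 ± 2.46 and 6.72 ± 0.959 (n = 3, exact permutation adjusted p = 0.0214), and no 2 days overlapped. Krt8 to Krt23 was 23.2 ± 10.5, 9.98 ± 1.02 and 10.5 ± 1.18 (exact permutation adjusted p = 0.0357), days 3 and 5 overlapping. Replicate 2 of day 1, where Krt23 was low, had the highest ratios, 67.6 and 35.4, and the other day 1 libraries (33.7 to 34.5 and 17.0 to 17.3) were also above every later library. Without replicate 2 of day 1 the log2 change from day 1 to day 3 was -0.49 in place of -0.81 for Krt7 to Krt23 and -0.79 in place of -1.13 for Krt8 to Krt23, and both calls held. The Krt8 to Krt23 call was lost without replicate 1 of day 3 (exact adjusted p = 0.0514) or replicate 2 of day 5 (0.0536).

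**Figure D3:**
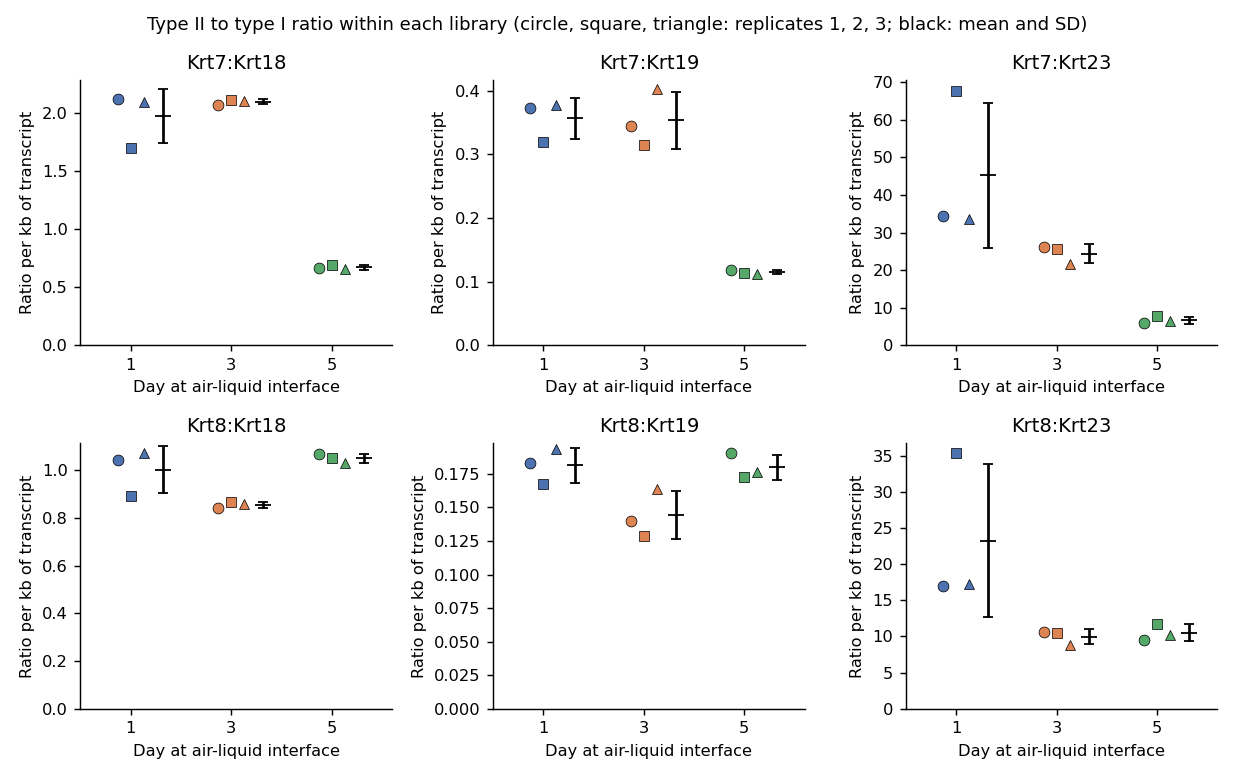
Ratio of normalized counts per kb of a type II keratin to a type I keratin (vertical axes from 0) within each library by day, with the mean and SD in black. The 3 panels of Krt7 drop on day 5, to 0.671 against Krt18, and the Krt8 to Krt18 ratio dips on day 3 to 0.855.

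Summed over the members, the type II to type I ratio per kb was 0.452 ± 0.0382 on day 1, 0.420 ± 0.0440 on day 3 and 0.248 ± 0.00866 on day 5 (n = 3). Per coding kb the same ratio was 0.860, 0.824 and 0.383. The type I side was in excess among the 5 on every day by all lengths used, except that without division by length replicates 1 and 3 of day 1 were at 1.02 and 1.04 and replicate 3 of day 3 at 1.05. Krt7 made up 20.6% ± 1.37, 20.97% ± 1.55 and 7.74% ± 0.138 of the summed level per kb on days 1, 3 and 5, and Krt19 made up 57.9% ± 1.46, 59.6% ± 3.05 and 67.4% ± 1.00. Krt8 held 10.5%, 8.56% and 12.1%, Krt18 10.5%, 10.01% and 11.5%, and Krt23 0.512%, 0.869% and 1.17%. The share of Krt7 moved with its length: it was 37.6%, 38.1% and 16.3% per coding kb and 14.5%, 14.8% and 5.19% per kb of all exons, with the drop on day 5 in each.

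The balance of the types was also taken over all annotated keratins, as summed RNA levels of bulk libraries. Over 53 annotated keratins the 5 members held 26.4% ± 0.376, 32.2% ± 1.14 and 25.2% ± 1.17 of the level per kb on days 1, 3 and 5. Krt7 and Krt8 held 20.4% of the type II level on day 1, 41.8% on day 3 and 31.0% on day 5, while Krt18, Krt19 and Krt23 held 30.4%, 29.4% and 24.1% of the type I level. Per coding kb Krt7 and Krt8 held 32.3%, 58.1% and 40.8% of the type II level. The type II to type I ratio of all keratins was 0.673 ± 0.00543, 0.295 ± 0.0280 and 0.193 ± 0.00832, and 0.837, 0.425 and 0.232 per coding kb. By either length the type I level was thus above the type II level over all keratins as well. The ratio of all keratins without division by length was not computed.

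Among the other keratins with at least 1000 normalized counts on average, Krt15, a basal type I chain, went from 62675 to 302633 and 195601 normalized counts on days 1, 3 and 5. Per kb it was above Krt19 on days 3 and 5, while on day 1 the 2 were nearly level, at 36868 and 35487. Krt13 and Krt4, a pair known from stratified mucosa and from airway cells leaving the basal layer, rose and fell as the members did, Krt13 at 19014, 60955 and 6927 and Krt4 at 14272, 33514 and 9500. Both changed past the threshold at each step, and Krt4 on day 5 against day 1 did not (log2 difference -0.53, limma adjusted p = 0.084). The basal pair went down, Krt5 from 108199 to 82486 and 38923, and Krt14 from 38820 to 9822 and then 11899, the last step not past the threshold (limma adjusted p = 0.23). The first step of Krt5 was only just past it (limma adjusted p = 0.0498). Basal markers as a list were split. Of 7, 2 rose and 4 fell from day 1 to day 3, against 36.1% and 37% of all genes. From day 1 to day 5, 3 rose and 4 fell, against 36.7% and 37.7%. The keratins of activated and wounded epithelium fell at both steps: Krt17 from 36493 to 15265 and 3555, Krt6a from 33601 to 5127 and 573, and Krt6b from 6993 to 177 and 75.9. Krt6a and Krt6b are near copies, as are Krt14, Krt16 and Krt17 in part, and reads may be split between them.

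**Figure D4:**
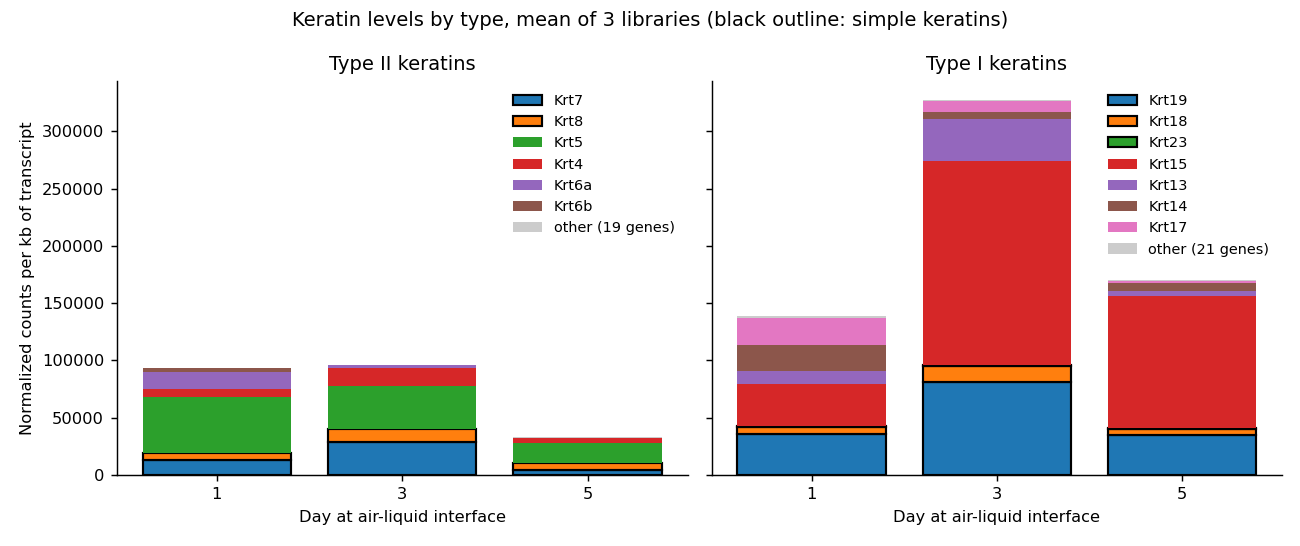
Mean normalized counts per kb of transcript of the keratins of each type on days 1, 3 and 5, stacked, with the simple keratins outlined in black at the base of each bar. The type I bars stand above the type II bars on every day, Krt15 fills most of the type I bar on days 3 and 5, and Krt7 shrinks from 28547 on day 3 to 3946 on day 5.

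Gene lists are read against all tested genes, of which 36.1% rose and 37% fell from day 1 to day 3, 34.8% rose and 32.4% fell from day 3 to day 5, and 36.7% rose and 37.7% fell from day 1 to day 5. Of the 12 other type II keratins tested, 4 rose and 6 fell from day 1 to day 3 (median log2 change -0.47), and 1 rose and 10 fell from day 3 to day 5 (median -1.77). From day 1 to day 5, 1 rose, Krt1, an epidermal keratin at 1.61 ± 0.235 and then 42.5 ± 13.7 normalized counts, and 8 fell (median -2.14). Of the 13 other type I keratins tested, 7 rose and 4 fell at the first step (median 0.72), 1 rose and 8 fell at the second (median -1.29), and 4 rose and 8 fell from day 1 to day 5 (median -1.35). The hair keratins Krt31 and Krt33b were among those that rose, Krt31 from 11.2 to 149 and Krt33b from no read on day 1 to 34.2, and Krt16, an activation keratin, fell from 2544 to 61.6.

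Of 27 tested genes for proteins that bind, anchor or organize keratin filaments, 4 rose and 16 fell from day 1 to day 3 (59.3% lower, against 37% of all genes; median -0.50). From day 3 to day 5, 6 rose and 11 fell (40.7% lower, against 32.4%; median -0.05), and from day 1 to day 5, 5 rose and 21 fell (77.8% lower, against 37.7%; median -0.83). Dsp, which ties keratin to desmosomes, went from 25387 ± 2329 to 4499 ± 244 and 4414 ± 1001 normalized counts, and Macf1, a large cytoskeletal crosslinker, from 9345 ± 1380 to 1418 ± 42.4 and 1106 ± 245. Tchp, which encodes the keratin-binding protein trichoplein, rose from 259 ± 28.8 to 511 ± 22.1 from day 1 to day 5 and Trim21, an antibody receptor and ubiquitin ligase, from 56.7 ± 9.34 to 308 ± 53.6.

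Of 34 tested genes of luminal epithelium, 21 rose and 8 fell from day 1 to day 3 (61.8% higher, against 36.1% of all genes; median 0.64). At the second step 8 rose and 14 fell (41.2% lower, against 32.4%; median -0.19), and from day 1 to day 5, 18 rose and 10 fell (52.9% higher, against 36.7%; median 0.33). Muc1, an apical membrane mucin, went from 164 ± 59.4 to 5505 ± 1002 and 6153 ± 827 normalized counts. Its second step did not pass the threshold (log2 change 0.17, limma adjusted p = 0.58), which does not show that its level was unchanged. Prom1, an apical membrane protein, rose at both steps, from 33.5 to 447 and 3671. Grhl3 and Ovol1, transcription factors of epithelial barrier formation, fell from 1018 to 79.7 and from 306 to 92.6 from day 1 to day 5.

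Among 29 tested transcription factors reported at simple keratin genes, 8 rose and 15 fell at the first step (51.7% lower, against 37% of all genes; median -0.30). At the second step 11 rose and 7 fell, 37.9% and 24.1% against 34.8% and 32.4% of all genes (median 0.12), and from day 1 to day 5, 10 rose and 14 fell, 34.5% and 48.3% against 36.7% and 37.7% (median -0.22). Fos, a subunit of AP-1, rose from 944 ± 279 to 7371 ± 2713 and 9529 ± 1362 normalized counts, and Foxa2, a factor of endodermal epithelium, from 15.0 ± 5.07 to 37.9 ± 3.34 and 99.7 ± 6.87. Klf4 fell from 5889 ± 677 to 1263 ± 368 and 612 ± 75.9, and Fosl1, another AP-1 subunit, from 298 to 21.4 and 2.57.

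Of 30 genes known from a Krt8-high transitional state of injured lung, 15 rose and 9 fell from day 1 to day 3 (50% higher, against 36.1% of all genes; median 0.35). From day 3 to day 5, 2 rose and 24 fell (80% lower, against 32.4%; median -1.09), and from day 1 to day 5, 6 rose and 23 fell (76.7% lower, against 37.7%; median -1.02). Nupr1, a stress-response gene, went from 2790 ± 1028 to 19974 ± 1534 and 9548 ± 2108 normalized counts. Lcn2, a secreted lipocalin, rose at both steps, from 59.2 to 4668 and 18160, and Sprr1a, a cornified envelope precursor, fell at both, from 10182 to 2687 and 40.2. Of 14 other intermediate filament genes, 7 were tested: 1 rose and 5 fell at the first step (median -0.997), 3 rose and 4 fell at the second (median -0.45), and 2 rose and 5 fell from day 1 to day 5 (median -1.49). Nes (nestin) rose from 548 to 782 and then fell to 48.6 normalized counts, Bfsp1, a lens filament gene, fell from 136 to 30.8 and 11.3, and Vim, the filament of mesenchymal cells, was at 24.5, 2.59 and 52.0 normalized counts, far under every member.

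The genes whose pattern was most like a member's, by Pearson r of log2 levels over the 9 libraries among 11612 genes, are given as a description, since the 9 libraries share 3 days. For Krt7 these were Ly6a (r = 0.999), Cda (0.998) and Ralb (0.998), of which Ly6a stood at 27047, 78496 and 7052 normalized counts. For Krt8 they were Mdfi (0.995), Slpi (0.992) and Crb3 (0.990), and for Krt18 Arpc1b (0.992), Avpi1 (0.991) and S100a11 (0.990). For Krt19 they were the ribosomal protein genes Rpl27a and Rpl18 and the RNA-binding gene Lsm4 (0.998 each), with Rpl27a at 17860, 53815 and 17593 normalized counts. For Krt23 they were Sqor and Grpel2 (0.987 each) and Tnf (0.986). Among the members, Krt8 and Krt18 had r = 0.989, Krt18 and Krt19 0.986 and Krt8 and Krt19 0.981, and Krt7 and Krt23 had 0.402, the lowest of the 10 pairs.

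Reads counted for near copies were few against those of the members. How reads that fit both a member and its copy were counted is not given in the sources used here. Krt8-ps, a pseudogene with 98.6% identity to Krt8 over 941 bases, held 425 ± 155, 78.1 ± 39.9 and 156 ± 28.1 normalized counts, which is 3.36%, 0.343% and 1.30% of Krt8. For Krt18 the copy Gm5200 (90.5% identity) had at most 4.85 normalized counts and Gm17847 at most 0.606. Whether strand was used in counting is not given in the sources used here. Gm671 overlaps 77 exonic bases of Krt7 on the opposite strand and had at most 75.1 normalized counts, and Gm36026 overlaps 101 bases of Krt8 and had at most 13.9.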

How the data were processed

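RNA was sequenced in 9 libraries, 3 per day, grouped by their titles, with libraries made with a VAHTS universal kit per the labels. Per the submitters' processing notes, HISAT2 2.1.0, GRCm39 and DESeq2 1.36.0 were used; the counter, the annotation release and strand use are not given in sources used here. The authors deposited log2 values, each the log2 of a read count over 1 size factor per library with no pseudocount; 297330 cells with no read hold an error text and were read as 0. Dropping 359 repeats from 57107 lines left 56748 genes. On the linear scale 100% of the low values were whole reads within 0.1 read.

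From these, limma 3.58.1 (R 4.3.3; lmFit, eBayes with trend) was fitted to log2(normalized count + 1), with 1 mean per day, over the 17338 genes that reached 10 normalized counts in 3 or more libraries, two-sided, with Benjamini-Hochberg adjustment over all of them at 0.05 and 6 residual degrees of freedom. Every adjusted p of a gene is from this fit unless another is named. Ratios used exact permutation tests. The scripts were tested on simulated data.

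Transcript length, GC content, chromosome and overlaps came from GENCODE M21 on GRCm38, which is not the build of the counts; promoter windows came from RefSeq on GRCm38.p6. Members and gene lists were chosen with earlier results of these data known. Beyond the members, the genes named were the keratins with a mean of at least 1000 normalized counts, for each list and direction the 2 genes past the threshold with the largest change from day 1 to day 5, and for each member the 3 genes of highest r among those with a mean of at least 100. Alternatives were other pseudocounts, filters, scalings, fits, lengths and left-out libraries. Depth limits precision: counting error is small for Krt7, Krt8, Krt18 and Krt19 and larger for Krt23.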

Additional observations from a re-analysis of the deposited data

How the results depend on the processing

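The rise of Krt7, Krt18, Krt19 and Krt23 and the fall of these 4 kept their direction and stayed past the threshold under all 22 alternatives; Krt8 lost its rise under 2 (transcript length and GC trend removed, without and with the replicate block) and its fall under 1 (quantile normalization). Day 5 against day 1, where 2 members passed, gave 5 with the length and GC trend removed, by transcript or coding length (the latter chosen after seeing the data) and with the block. Most genes passed there too: 12957 of 17046 by transcript length, 12696 of 17046 with the block and 10685 of 13449 by coding length. In the main fit 12909 of 17338 passed. The small day 5 minus day 1 differences changed sign: Krt8 was 0.18 by quantile normalization, 0.0043 with TMM factors, 0.0087 by limma-voom and -0.16 to 0.054 over left-out libraries, above 0 without replicate 1 of day 5; Krt18 was 0.22 by quantile normalization; Krt19 was 0.016 with TMM factors, 0.021 by limma-voom and -0.16 to 0.11 over left-out libraries, above 0 without the same library, and -0.54 and called by quantile normalization. Adding the Krt8-ps reads to Krt8, also chosen after seeing the data, changed no call. The cause was not tested.

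Same-numbered libraries did not deviate together (r -0.31 to 0.14 over 9 pairs, against -0.15 to 0.36 for other numbers), so no pairing by number was seen. Deviations from a mean of 3 libraries cannot exclude a pairing with a small effect, and the titles do not say whether the numbers pair the libraries. With the replicate block no limma call of a member changed, while permuting days within replicate numbers left no ratio called: the day 5 minus day 3 log2 ratios of -1.64 (Krt7:Krt18), -1.61 (Krt7:Krt19), -1.87 (Krt7:Krt23), 0.30 (Krt8:Krt18), 0.32 (Krt8:Krt19) and 0.072 (Krt8:Krt23) had exact adjusted p of 0.10 to 0.111. With transcript length and GC removed Krt8:Krt18 was 0.082 and Krt8:Krt19 0.16, and with coding length 0.26 and 0.21, none called. Leaving out a library gave -1.67 to -1.63 for Krt7:Krt18, -1.70 to -1.52 for Krt7:Krt19, -1.98 to -1.78 for Krt7:Krt23, 0.28 to 0.31 for Krt8:Krt18, 0.25 to 0.42 for Krt8:Krt19 and -0.015 to 0.15 for Krt8:Krt23, the last below 0 without replicate 3 of day 3 and without replicate 2 of day 5 (-0.014). From day 1 to day 3, Krt7:Krt18 (0.094) was -0.26 by quantile normalization, 1.01 with transcript length and GC removed, 0.45 with coding length and -0.0097 to 0.15 over left-out libraries, below 0 without replicate 2 of day 1, and Krt7:Krt19 was 0.12 by quantile normalization, 0.97 with transcript length and GC removed, 0.44 with coding length and -0.11 to 0.065 over left-out libraries. Quantile normalization took Krt8:Krt19 from -0.34 to -0.01 at the first step and from 0.32 to 0.73 at the second, and Krt8:Krt23 from 0.072 to 0.64 at the second; with transcript length and GC removed Krt7:Krt23 went from -0.81 to -0.25 at the first. These 6 ratios stayed called under quantile normalization. The type II to type I ratio of the summed members on days 1, 3 and 5 was 0.374, 0.338 and 0.237 per kb of all exons, 0.860, 0.824 and 0.383 per coding kb, and 0.981, 0.938 and 0.445 without length.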
